A study of Mus musculus with 52 samples.

Results

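The genes described here encode 9 mouse liver enzymes: Cyp2e1, Adh1, Adh4, Adh5, Aldh2, Aldh1a1, Aldh3a2, Cat and Acss2. They oxidize ethanol, aldehydes or dialkylnitrosamines, except Acss2, which joins the acetate formed to coenzyme A. The genes were chosen by name, and every probe set whose only gene symbol in the array annotation was 1 of these 9 was taken. This gave 13 probe sets of the 22626 in the table, with 3 for Aldh2, 2 each for Cat and Acss2 and 1 for each other gene. All 13 lay above the detection floor on all 52 arrays. Where a gene had several probe sets, the brightest on average stands for it, and the others are given where they differ. Levels are log2 signals and changes are log2 ratios of a treated array to its own vehicle control of the same time, so that 1 unit is a doubling.

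As background, the liver clears ethanol mainly in the cytosol, where alcohol dehydrogenases turn it into acetaldehyde, and mitochondrial aldehyde dehydrogenase then makes acetate. Cyp2e1, a cytochrome P450 of the endoplasmic reticulum, and catalase, an enzyme of peroxisomes that uses hydrogen peroxide, are side routes to the same acetaldehyde. Cyp2e1 also oxidizes dimethylnitrosamine at a carbon next to the nitroso group, which releases a reactive alkylating species and an aldehyde, while longer dialkylnitrosamines such as dipropylnitrosamine are also substrates of other P450s. The acetate left at the end is joined to coenzyme A by acyl-CoA synthetases, of which Acss2 is the cytosolic one.

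Liver RNA came from 9-week-old male B6C3F1 mice given a single intraperitoneal injection of 1 of 8 chemicals, and 5 livers were pooled for each array. The chemicals of main interest were ethanol (EtOH) at 1000 mg/kg, dimethylnitrosamine (DMN) at 5 mg/kg and dipropylnitrosamine (DPN) at 250 mg/kg. The others were N-ethyl-N-nitrosourea (ENU) at 150 mg/kg, dibenzo[a,l]pyrene (DBP) at 6 mg/kg, 7,12-dimethylbenz[a]anthracene (DMBA) at 20 mg/kg, phenobarbital (PB) at 30 mg/kg and o-aminoazotoluene (AAT) at 300 mg/kg. Each was measured on 1 array at 4 h, 20 h, 14 days and 28 days. Saline controls were run separately for ENU, for DMN and for DPN, while EtOH and PB shared 1 saline control and AAT, DMBA and DBP shared 1 olive oil control at each time, which made 5 controls a time. DMN and DPN differ in alkyl chain length (methyl and propyl), but their doses also differed, so their values stand side by side without a test between them. A treated array has no replicate, and the pools leave the spread between mice unmeasured. Fewer cells of a type and less RNA per cell cannot be told apart in these bulk samples.

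Several arrays stood apart. Array medians ran from 17.9 (PB at 28 days) to 205 (the saline control of DMN at 14 days), and the saline controls of ENU and DPN at 14 days had medians of 40.5 and 49.9. The EtOH array of 20 h had 3′ to 5′ log2 ratios of 3.13 for Gapdh and 3.79 for actin, against -0.51 to 0.34 and 0.15 to 1.28 on the other 51 arrays. The array labelled saline control of EtOH and PB at 20 h had a Cyp2b10 level of 11.48, against 5.85 to 8.28 on the other 19 controls and 8.25 on the array labelled PB at 20 h. Cyp2b10 is the P450 gene that phenobarbital classically induces, so the labels of this set are in doubt. Every EtOH and PB ratio of 20 h, and with it every first-day change of EtOH and PB, rests on this set. The 5 hepatocyte markers measured (Alb, Apoa1, Ttr, Tat and Hnf4a) were above the floor in every group, and their summed signal ran from 37432 to 46451 on EtOH arrays, 38229 to 53320 on DMN arrays, 38348 to 57682 on DPN arrays and 36459 to 52817 on controls.

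None of the 9 genes passed the test for any chemical. With 4 h and 20 h in 1 term and the own control as a block, 0 of 9 were called on the first day of EtOH by limma at an adjusted p under 0.05, where 0.0109% of all 18349 probe sets were called. The count was likewise 0 of 9 for DMN (0.0218% of all probe sets) and for DPN (0.997%). At 14 and 28 days together, 0 of 9 were called for EtOH (0.0272%), DMN (0%) and DPN (0.0708%), and 0 of 9 for the difference between the first day and later in EtOH (0%), DMN (0.00545%) and DPN (0.0327%). On the first day of the other chemicals the count was 0 of 9 for ENU (0.0654%), AAT (0.049%), DMBA (0%), DBP (0.00545%) and PB (0%). At an unadjusted p under 0.05 there were 2 of the 9 genes on the first day of EtOH (Adh5 and Acss2), 1 on that of ENU (Acss2) and 1 in DPN both later and for the difference (Aldh2), and 0 in the other comparisons. Over all 18349 probe sets the same limma threshold gave 3042 (EtOH first day), 1149 (ENU first day), 2022 (DPN later) and 1672 (DPN difference). Where no probe set was called, limma gave 359 (DMBA), 469 (PB), 744 (DMN later) and 1646 (EtOH, first day minus later) of all probe sets at an unadjusted p under 0.05. The median first-day change of the 9 genes was 0.16 in EtOH, 0.02 in DMN and -0.12 in DPN, beside 0.05, 0.02 and 0.01 over all probe sets. By array most ratios were small, with a few larger ones at 20 h in Acss2, Adh4, Adh5 and Aldh3a2.

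**Figure D1:**
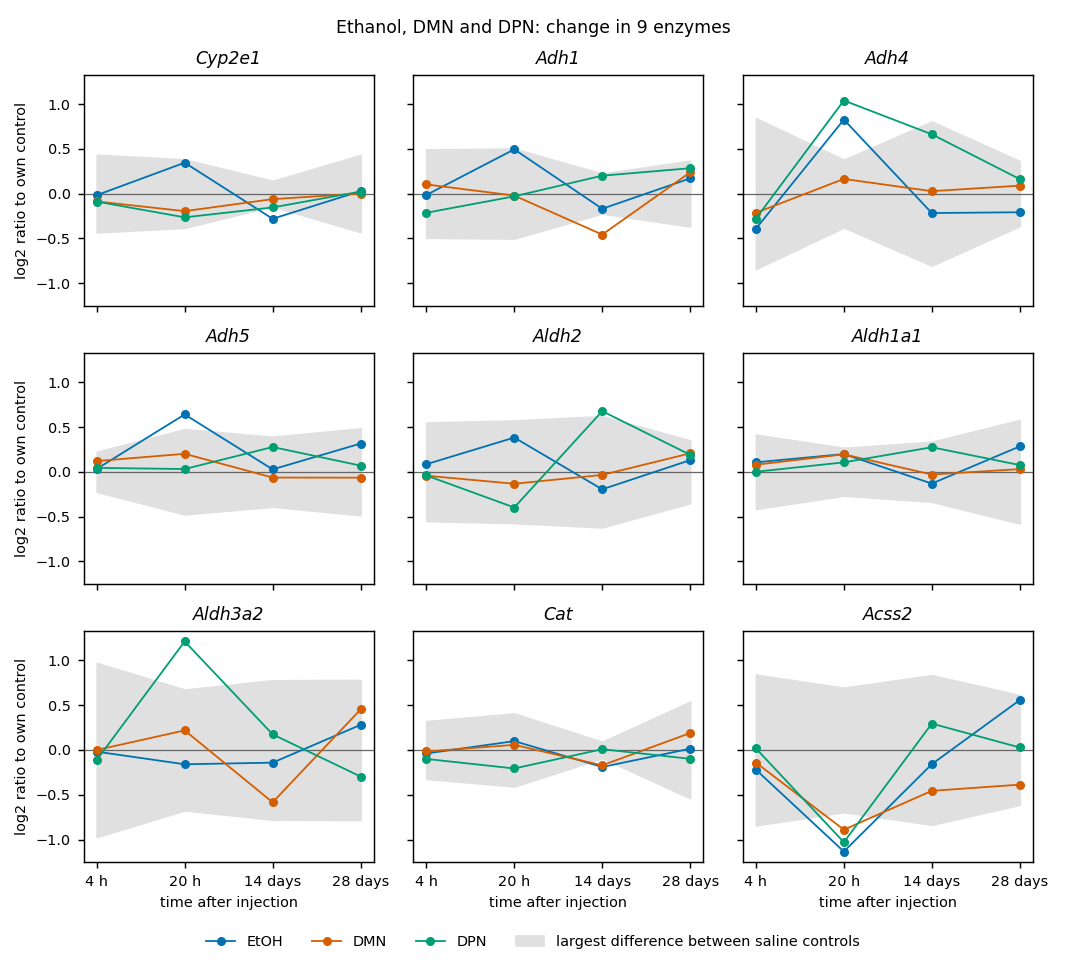
Vertical axis, log2 ratio of the treated array to its control for each of the 9 genes at 4 h, 20 h, 14 days and 28 days (horizontal axis) for EtOH, DMN and DPN, 1 array a point, with the largest difference between any 2 of the 4 saline controls of that time as a grey band on both sides of 0. The points outside the band at 20 h are Acss2 in all 3 chemicals, Adh4 and Adh5 in EtOH and Adh4 and Aldh3a2 in DPN.

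Ratios of 1.5-fold or more in either direction were then counted by array. EtOH had 0 of 9 at 4 h (8.2% of all probe sets), 3 of 9 at 20 h (35.4%), 0 of 9 at 14 days (10.1%) and 0 of 9 at 28 days (13.6%). DMN had 0 of 9 at 4 h (11.7%), 1 of 9 at 20 h (10.6%), 0 of 9 at 14 days (12.4%) and 0 of 9 at 28 days (10.1%). DPN had 0 of 9 at 4 h (15.2%), 3 of 9 at 20 h (17.5%), 2 of 9 at 14 days (24.4%) and 0 of 9 at 28 days (11.2%). The 20 h arrays held 7 of the 9 larger ratios, and the 3 on the EtOH array of 20 h lie on the array with the high 3′ to 5′ ratios.

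Cyp2e1, the P450 common to ethanol and DMN, had no ratio of 1.5-fold or more in any of the 3 treatments. It stood at 12.90, 13.26, 12.78 and 12.94 in EtOH livers at 4 h, 20 h, 14 days and 28 days, against 12.92, 12.92, 13.06 and 12.92 in their saline controls. In DMN livers it stood at 13.04, 12.89, 12.91 and 13.16, against 13.13, 13.09, 12.97 and 13.16 in controls. DPN livers had 13.27, 12.97, 12.95 and 13.37, against 13.36, 13.23, 13.11 and 13.35 in controls. On the first day both nitrosamines lay slightly below their controls at both times, and EtOH lay above its control at 20 h only. The saline controls alone spanned 0.43 at 4 h and 0.38 at 20 h, more than any of these first-day ratios. At 14 days they spanned only 0.14, and the EtOH (-0.28) and DPN (-0.15) ratios lay beyond that, while the DMN ratio (-0.06) did not. The first-day change was 0.16 (SE 0.16) in EtOH, -0.14 (SE 0.16) in DMN and -0.18 (SE 0.16) in DPN, with limma adjusted p of 0.671, 1 and 0.775. These signs depended on the setting. The EtOH value was -0.083 after quantile normalization, -0.34 on the deposited values without scaling and -0.018 without the EtOH and PB set of 20 h, the DMN value was 0.054 on the deposited values, and the DPN value was 0.043 against all 5 controls.

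The Cyp2e1 gene lies on chromosome 7 of GRCm38 (chr7:140763819-140774990), and the bases just before its start are shown because this gene is the enzymatic link between ethanol and the nitrosamines. The stretch is the forward strand of chr7:140763699-140763818 from RefSeq (GRCm38.p6), with capitals on a TATAAA box and on ATTGG, the reverse complement of CCAAT.
Cyp2e1: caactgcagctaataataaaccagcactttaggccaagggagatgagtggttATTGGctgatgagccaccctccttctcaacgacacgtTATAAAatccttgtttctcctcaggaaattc
TATAAA began at position -31 and ATTGG at -68, counted from the start. On either strand of windows from 250 bases before to 50 after the start, TATAAA is found in 13.6% and CCAAT in 37.4% of 32851 promoters. Of the 9 genes, 8 have a promoter in that table.

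The alcohol dehydrogenases Adh1, Adh4 and Adh5 lie in 1 cluster on chromosome 3 (chr3:138277585-138290698, chr3:138415456-138432683 and chr3:138437200-138455499). Over the 32 treated arrays, which share controls, their ratios had a Pearson r of 0.59 for Adh1 with Adh5, 0.42 for Adh4 with Adh5 and 0.25 for Adh1 with Adh4. Adh1, the main ethanol-oxidizing class of mouse liver, stood at 12.66, 13.12, 12.55 and 12.86 in EtOH livers at the 4 times, against 12.68, 12.63, 12.72 and 12.69 in controls. DMN livers had 12.83, 12.99, 12.36 and 13.13, against 12.73, 13.02, 12.82 and 12.89 in controls, and DPN livers 12.96, 13.01, 12.82 and 13.34, against 13.17, 13.04, 12.62 and 13.06 in controls. Only the DMN array of 14 days, at -0.46, lay beyond the largest difference between saline controls of its time (0.22), and its control is the array with the median of 205.

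Adh4, which acts on retinol and longer alcohols as well as ethanol, was the most variable of the 3. EtOH livers had 9.29, 11.21, 10.43 and 10.36 at the 4 times, against 9.68, 10.38, 10.65 and 10.57 in controls. DMN livers had 10.12, 10.86, 10.39 and 10.79, against 10.33, 10.70, 10.37 and 10.70. DPN livers had 10.05, 11.36, 10.70 and 11.08, against 10.33, 10.32, 10.03 and 10.91 in controls. At 20 h the DPN (1.04), EtOH (0.83) and ENU (0.70) ratios all exceeded the 0.38 spanned by the saline controls, though the EtOH value lies on the array with the high 3′ to 5′ ratios. The levels in ENU, DMN and DPN livers all lay above all 5 controls (10.32 to 10.70), as did those of 7.05% of all probe sets. At 4 h the Adh4 ratio was below 0 for all 8 chemicals, from -0.46 in AAT to -0.03 in PB, which 0.916% of all probe sets also did. Those ratios rest on 5 controls, and none exceeded the 0.84 between saline controls at 4 h. Over the 6 genotoxic chemicals (ENU, DMN, DPN, AAT, DMBA and DBP) the Adh4 change was -0.29 (SE 0.09) at 4 h and 0.42 (SE 0.22) at 20 h, with limma adjusted p of 0.452 and 0.965.

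Adh5, which is also the glutathione-dependent formaldehyde dehydrogenase, acts on the aldehyde that DMN releases. In DMN livers Adh5 stood at 11.29, 11.56, 10.90 and 11.38 at the 4 times, against 11.17, 11.36, 10.97 and 11.45 in controls. DPN livers had 11.33, 11.39, 11.24 and 11.50, against 11.29, 11.36, 10.96 and 11.43 in controls. None of these 8 ratios passed 1.5-fold, and the 20 h ratio in DMN was 0.20, inside the 0.48 between saline controls. EtOH livers had 11.17, 11.69, 11.19 and 11.29, against 11.14, 11.05, 11.17 and 10.97, and the 20 h level lay above all 5 controls of that time (11.05 to 11.52). The first-day change in EtOH was 0.34 (SE 0.14), with a limma adjusted p of 0.234. It was 0.032 without the EtOH and PB set of 20 h, and the 20 h ratio of 0.64 became 0.25 after quantile normalization. Set against the array labelled PB at 20 h in place of the doubtful control, the EtOH array differed by 0.53 in Adh5, 0.73 in Adh4 and 0.35 in Cyp2e1.

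Among the aldehyde dehydrogenases, Aldh2 (chr5:121566027-121593824) is the mitochondrial enzyme that clears most acetaldehyde. EtOH livers had Aldh2 levels of 12.39, 12.70, 12.31 and 12.59 at the 4 times, against 12.31, 12.31, 12.50 and 12.46 in controls. DMN livers had 12.45, 12.71, 12.18 and 12.93, against 12.49, 12.84, 12.21 and 12.72. DPN livers had 12.65, 12.33, 12.56 and 13.005, against 12.69, 12.73, 11.88 and 12.82 in controls. In DPN the gene was thus below its control at 20 h (-0.40) and above it at 14 days (0.68). The change at 14 and 28 days together was 0.43 (SE 0.16, limma adjusted p 0.344), and the first day differed from it by -0.65 (SE 0.23, adjusted p 0.350). The 14-day control of DPN had the lowest Aldh2 level of the 5 controls (11.88, the others 12.08 to 12.50) and a low array median, and without 14 days the later change was 0.19. The other Aldh2 probe sets were dim (mean levels 6.47 and 6.36, the brightest 12.48) and gave DPN ratios of -0.21 and 0.24 at 14 days.

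Aldh1a1 (chr19:20492583-20643463), a cytosolic enzyme that oxidizes retinaldehyde and acetaldehyde, showed the narrowest range of the 3. It stood at 12.21, 12.56, 12.11 and 12.35 in EtOH livers, against 12.11, 12.36, 12.24 and 12.07 in controls. Its 8 ratios in DMN and DPN lay between -0.03 and 0.27. No Aldh1a1 ratio of EtOH, DMN or DPN exceeded the largest difference between saline controls of its time (0.27 to 0.58).

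Aldh3a2 (chr11:61223417-61267528), the fatty aldehyde dehydrogenase, gave the largest positive ratio among the 9 genes. In DPN livers it stood at 9.40, 10.52, 9.35 and 9.69 at the 4 times, against 9.51, 9.31, 9.18 and 9.98 in controls. DMN livers had 9.003, 9.22, 8.69 and 9.66, against 9.003, 9.004, 9.27 and 9.20, and EtOH livers had 9.96, 9.52, 9.81 and 10.04, against 9.97, 9.68, 9.95 and 9.76. The DPN level at 20 h lay above every control of that time (9.004 to 9.68), with a ratio of 1.21, and AAT was also above its control at 20 h (9.95 against 9.08, a ratio of 0.87). At 4 h the DPN ratio was -0.11, so the first-day change of 0.55 (SE 0.27, limma adjusted p 0.466) came from 1 array. The change over the 6 genotoxic chemicals at 20 h was 0.49 (SE 0.22, adjusted p 0.965).

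Cat (chr2:103453904-103485153), the peroxisomal catalase, had no ratio of 1.5-fold or more in EtOH, DMN or DPN by its brightest probe set. EtOH livers had 12.10, 12.05, 12.01 and 12.12 at the 4 times, against 12.14, 11.95, 12.20 and 12.10 in controls. DMN livers had 12.29, 12.35, 11.95 and 12.46, against 12.31, 12.29, 12.12 and 12.28, and DPN livers had 12.36, 12.14, 12.12 and 12.54, against 12.46, 12.35, 12.12 and 12.64. All 12 ratios lay between -0.21 and 0.19. At 14 days the EtOH (-0.19) and DMN (-0.17) ratios lay beyond the 0.09 between saline controls, while the DPN ratio (0.01) did not. The second Cat probe set differed in sign at several points and ran from -0.39 to 0.62, the highest being EtOH at 20 h.

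Acss2 (chr2:155518043-155562743), the cytosolic acetyl-CoA synthetase, had the lowest ratios of the 9 genes in EtOH, DMN and DPN, all at 20 h. EtOH livers had 9.62, 9.15, 9.38 and 10.58 at the 4 times, against 9.84, 10.28, 9.54 and 10.03 in controls. DMN livers had 9.45, 9.70, 9.45 and 9.84, against 9.60, 10.59, 9.91 and 10.23. DPN livers had 9.18, 8.92, 9.63 and 9.69, against 9.16, 9.95, 9.33 and 9.66 in controls. The 20 h ratios were -1.13 in EtOH, -0.89 in DMN and -1.03 in DPN, each larger than the 0.69 between saline controls, while at 4 h none was below -0.22.

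The same was seen in part of the other chemicals. At 20 h Acss2 stood at 9.20 in ENU livers, against 10.64 in their control, and at 9.02 in AAT livers, against 9.83 in the olive oil control. DMBA (10.11), DBP (9.61) and PB (10.57) stood within 0.29 of their controls (9.83, 9.83 and 10.28), the last being the doubtful one. The 3 alkylating agents ENU, DMN and DPN were all below all 5 controls (9.83 to 10.64), an arrangement found in 1.78% of all probe sets, and EtOH, AAT and DBP were below all 5 controls too. The first-day changes were -0.68 (SE 0.31) in EtOH, -0.52 in DMN, -0.51 in DPN, -0.81 in ENU and -0.53 in AAT with the same SE, and limma adjusted p of 0.269, 1, 0.595, 0.642 and 0.944. Against all 5 controls of each time in place of the own one, the DPN change was -0.89 with an adjusted p of 0.0492. Over the 6 genotoxic chemicals at 20 h it was -0.83 (SE 0.35, adjusted p 0.965).

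The second Acss2 probe set gave the same sign at 20 h for DMN (-0.44), DPN (-1.20), ENU (-1.57) and AAT (-0.87), but for EtOH it stood at 10.66, against 9.89 in the control. The probe sets of this gene therefore disagreed in EtOH at 20 h, on the array with the high 3′ to 5′ ratios. Set against the array labelled PB at 20 h, the brightest probe set of EtOH differed by -1.42. The part of RNA quality in the EtOH value was not tested.

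**Figure D2:**
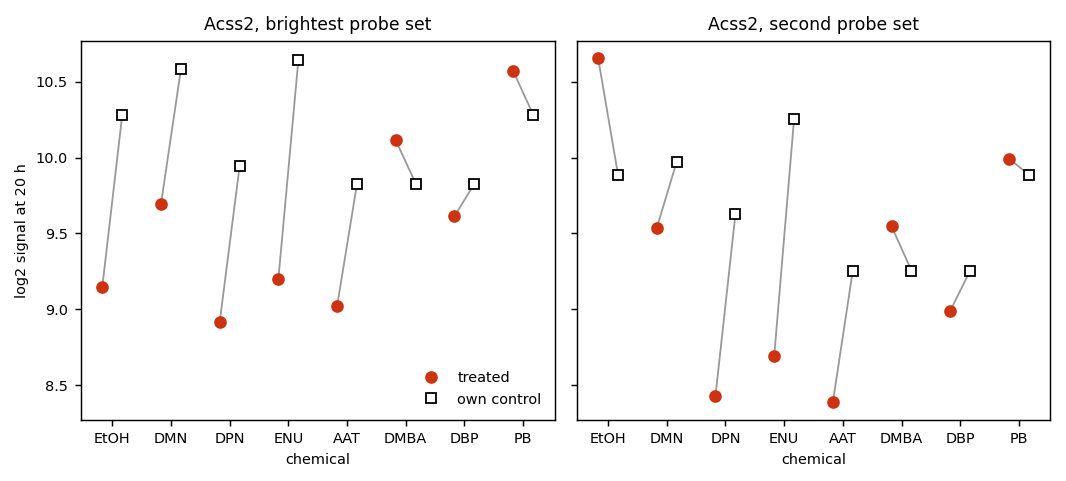
Log2 signal (vertical axis) of the 2 Acss2 probe sets at 20 h in livers treated with each of 8 chemicals (filled circles, left of each pair) and in their own controls (open squares), 1 array a point. The brightest probe set is lower than its control in EtOH, DMN, DPN, ENU and AAT, with log2 ratios of -0.81 to -1.44, and the second is lower in DMN, DPN, ENU and AAT but higher in EtOH.

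Over the 32 treated arrays, the ratios of Acss2 ran most closely with those of Sc5d (Pearson r 0.88), Fdps (0.88) and Nsdhl (0.88) among 7359 genes, all 3 of which encode enzymes of cholesterol synthesis. At 20 h Fdps ratios were -2.96 in EtOH, -0.65 in DMN and -1.40 in DPN, Sc5d ratios -0.69, -0.40 and -1.05, and Nsdhl ratios -1.16, -0.60 and -1.19. In EtOH at 28 days, where Acss2 was above its control by 0.56, Fdps was above by 1.38, Sc5d by 0.52 and Nsdhl by 0.80. Without EtOH at 20 h, PB at 28 days and AAT at 14 days the coefficients over 29 arrays were 0.88, 0.89 and 0.86. The points share controls and were not tested.

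Acss2 and these genes are known targets of the sterol-regulated factors SREBP, which bind beside the factors NF-Y (at CCAAT) and Sp1 (at GGGCGG). The 120 bases before the starts of 3 of them follow, from RefSeq (GRCm38.p6), to show which of these sites lie there. They are the forward strands of chr2:155517923-155518042 and chrX:72918401-72918520 and the reverse strand of chr9:42264301-42264420, with capitals on every CCAAT and GGGCGG of either strand (printed as ATTGG and CCGCCC where reversed).
Acss2: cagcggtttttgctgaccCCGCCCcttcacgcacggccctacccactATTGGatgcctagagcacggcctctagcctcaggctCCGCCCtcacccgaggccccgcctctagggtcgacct
Nsdhl: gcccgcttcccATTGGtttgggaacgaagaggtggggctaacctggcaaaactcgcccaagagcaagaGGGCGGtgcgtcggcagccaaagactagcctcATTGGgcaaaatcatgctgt
Sc5d: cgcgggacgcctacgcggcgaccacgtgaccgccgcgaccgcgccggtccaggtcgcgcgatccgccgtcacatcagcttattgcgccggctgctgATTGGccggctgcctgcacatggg
Each stretch holds at least 1 ATTGG, which began at position -73 in Acss2 and -24 in Sc5d. The Sc5d stretch printed holds no whole GGGCGG, so that site is not common to the 3 stretches. In the wider windows of 300 bases, however, GGGCGG of either strand lies in all 3, in Sc5d at positions -241, -205, -3 and 17. CCAAT of either strand also lies in the windows of Cyp2e1, Adh4, Aldh3a2 and Cat, and GGGCGG in those of Aldh3a2 and Cat. The Pearson r with the ratios of Acss2 was 0.16 for Cyp2e1, -0.29 for Adh4, -0.29 for Aldh3a2 and 0.12 for Cat. A link between these sites and the ratios was not tested. GGGCGG is found on either strand in 35.7% of all promoters and CCAAT in 37.4%. The sterol element TCACNCCAC, present in 1.24%, was not found in these 3 windows of 300 bases, which says only that these letters are not there.

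Ratios of Cyp2e1 ran most closely with those of the plasma protein genes Alb (r 0.90), Selenop (0.89) and Ttr (0.88), all made by hepatocytes. The highest Cyp2e1 ratios, 0.65 in AAT at 14 days and 0.49 in PB at 28 days, stood beside Alb ratios of 0.66 and 0.82 and Ttr ratios of 0.55 and 1.00. Those 2 arrays had medians of 50.8 and 17.9, against 68.2 and 73.5 in their controls. Without them and EtOH at 20 h the coefficients were 0.79, 0.73 and 0.84 over 29 arrays. Adh1 ran most closely with Cps1 (0.78), Cyp3a25 (0.76) and Rgn (0.76), and Cat with Mup3 (0.70), Mug1 (0.68) and Akr1c6 (0.67), which are likewise abundant hepatocyte genes. Without the same 3 arrays these coefficients were 0.61, 0.61 and 0.67 for Adh1 and 0.47, 0.57 and 0.41 for Cat over 29 arrays. Within the 9 genes the closest pairs were Cyp2e1 with Cat (0.66), and Adh1 with Cyp2e1 (0.64) and with Aldh1a1 (0.64), and the lowest coefficient was that of Cyp2e1 with Aldh3a2 (-0.31).

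**Figure D3:**
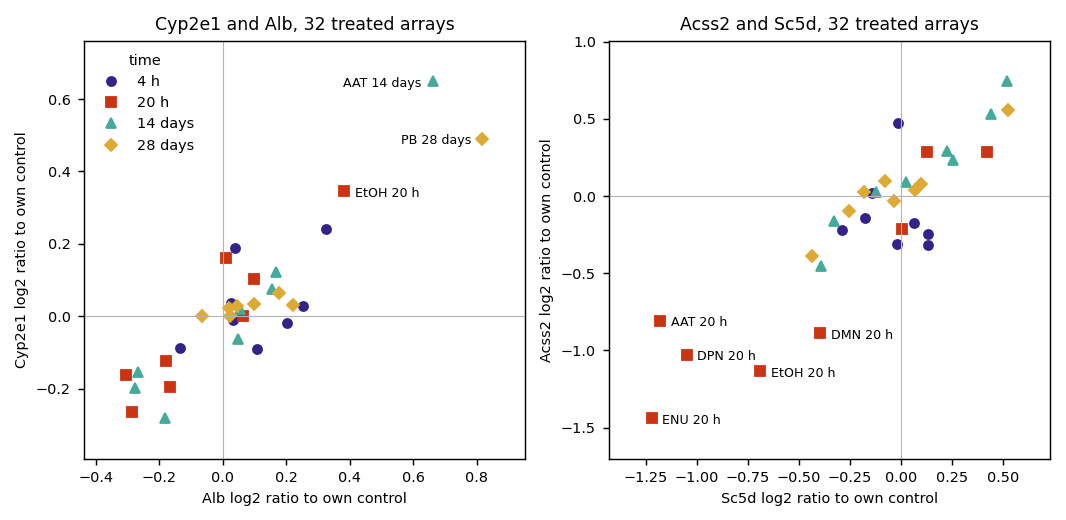
Log2 ratios to the own control of Cyp2e1 against Alb (left) and of Acss2 against Sc5d (right) on the 32 treated arrays, with the time shown by colour and shape. In the left panel AAT at 14 days and PB at 28 days lie far up and to the right, and in the right panel EtOH, DMN, DPN, ENU and AAT at 20 h form the lower left group.

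In the other chemicals, the 9 genes had most 1.5-fold ratios in AAT at 14 days, 4 of 9 (13.2% of all probe sets), all higher. Cat stood at 12.73 there, against 11.82 in the olive oil control, Adh1 at 13.22, against 12.54, and Aldh2 at 12.73, against 12.08. These 4 ratios, Cyp2e1 among them, shrank to between 0.09 and 0.45 after quantile normalization. AAT at 20 h had 2 of 9 (15.1%), Acss2 and Aldh3a2, and ENU at 20 h had 2 of 9 (11.4%), Acss2 and Adh4. ENU at 14 days had 2 of 9 (24.3%), with Adh4 at 10.63, against 9.84, and Acss2 at 9.82, against 9.07 in the control that had a median of 40.5. PB at 28 days had 1 of 9 (12.8%), Aldh1a1 at 12.68, against 12.07. That array had the median of 17.9, and its Aldh1a1 ratio of 0.60 was 0.24 after quantile normalization and -1.43 on the deposited values. Over the 6 genotoxic chemicals together, 0 of 9 genes were called at 4 h, 20 h, 14 days or 28 days (0% of all probe sets at each time by limma, with 1785, 847, 2164 and 1116 at an unadjusted p under 0.05). Of the 9 genes, Adh4 at 4 h, Acss2 at 20 h, Adh5 and Aldh2 at 14 days and Aldh2 at 28 days were among those counts. In that class the Cyp2e1 difference was 0.018 (SE 0.067) at 4 h, which turned to -0.066 after quantile normalization, and -0.12 (SE 0.12) at 20 h, which was 0.11 on the deposited values.

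In the 20 controls, the level itself changed with time for 2 of the 9 genes, beside 13.2% of all probe sets. Acss2 in the ENU, DMN, DPN and EtOH and PB saline controls stood at 10.00, 9.60, 9.16 and 9.84 at 4 h and at 10.64, 10.59, 9.95 and 10.28 at 20 h, and in the olive oil control at 9.45 and 9.83. All 5 controls were thus higher at 20 h than at 4 h, by 0.65 on average (limma F test over the 4 times, adjusted p 0.0185). At 14 days the controls lay between 9.07 and 9.91. The second Acss2 probe set gave 0.49 for the same step, with an adjusted p of 0.162. The low Acss2 levels of treated livers at 20 h were therefore set against controls that were themselves high at 20 h. Adh5 was the other gene that changed (adjusted p 0.0448), with a mean difference of -0.30 between 14 days and 4 h, while Adh4 stood 0.39 above 4 h at 20 h (adjusted p 0.108). Both calls were lost after quantile normalization (adjusted p 0.0881 for Acss2 and 0.758 for Adh5). The Acss2 call was also lost without the olive oil, DMN or DPN set (adjusted p 0.0712, 0.0787 and 0.116), and the Adh5 call without any 1 set but that of EtOH and PB (0.159 to 0.253), while the Acss2 step stayed between 0.56 and 0.71.

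Control levels also differed by set. The olive oil control was the lowest of the 5 controls at all 4 times for Cyp2e1 (12.74 to 12.83, saline 12.92 to 13.36), Adh1 (12.53 to 12.60, saline 12.60 to 13.17) and Cat (11.82 to 11.90, saline 11.95 to 12.64), 3 of the 9 genes, beside 0.997% of all probe sets. Vehicle and set cannot be told apart here. For Cyp2e1 the control means of the later times lay within -0.08 of 4 h (limma adjusted p 0.771).

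**Figure D4:**
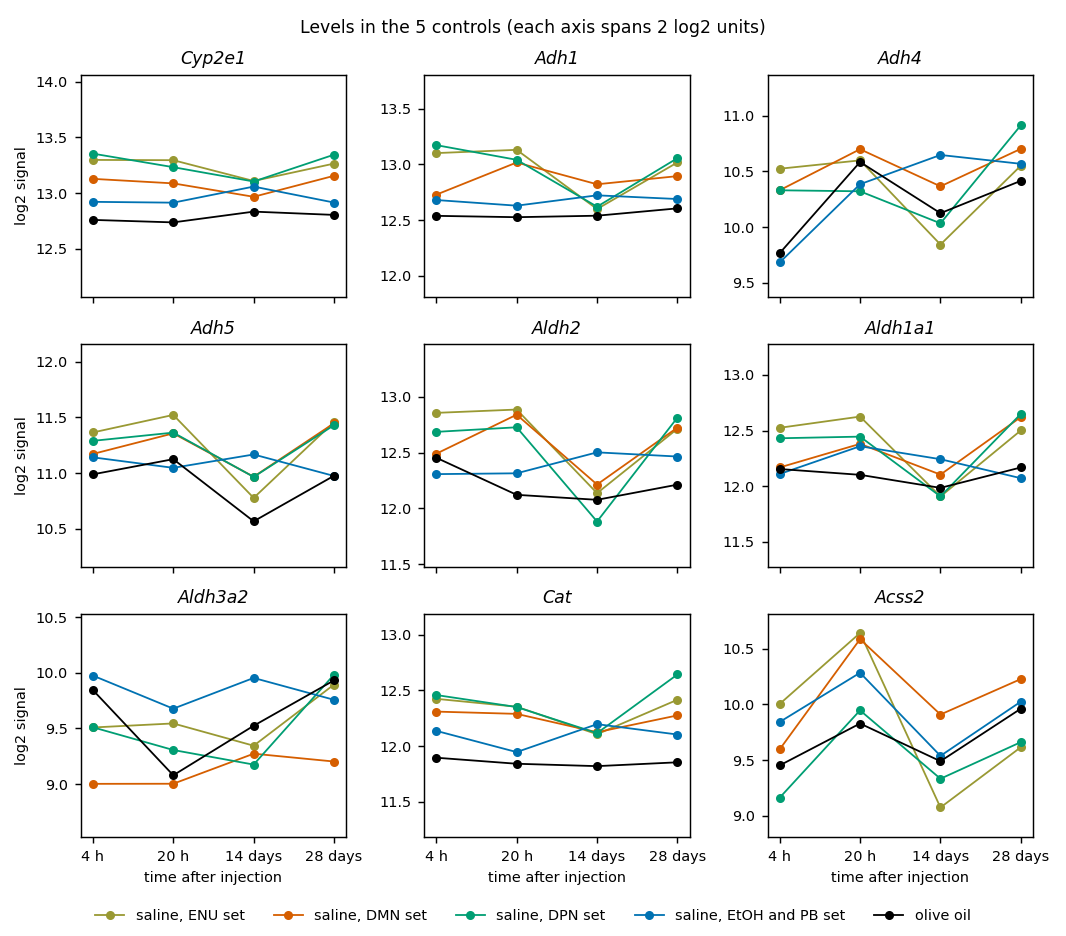
Log2 signal (vertical axis, 2 log2 units in each panel) of the 9 genes in the 4 saline controls and the olive oil control at 4 h, 20 h, 14 days and 28 days (horizontal axis), 1 array a point. Acss2 is higher at 20 h than at 4 h in all 5 controls, and the olive oil control is the lowest for Cyp2e1, Adh1 and Cat at all 4 times.

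The other genes of these pathways were read from lists of known members. Of 12 other alcohol and aldehyde dehydrogenases measured, 0 were called on the first day of EtOH, DMN or DPN, with medians of -0.03, 0.06 and -0.21. Later in DPN 1 of the 12 was called, beside 0.0708% of all probe sets. This was Aldh1b1, a mitochondrial acetaldehyde dehydrogenase related to Aldh2, which rose by 1.03 (SE 0.19, limma adjusted p 0.0398), with ratios of 1.15 at 14 days and 0.90 at 28 days and 0.06 at 20 h. The 14-day ratio rests on the DPN control with the array median of 49.9, and 24.4% of all probe sets reached 1.5-fold in DPN at that time. The Aldh1b1 call was lost after quantile normalization (adjusted p 0.0542) and against all 5 controls (0.078). On the first day of EtOH its difference was 0.55 (SE 0.19, adjusted p 0.166). Aldh1l1, a folate enzyme, had a first-day difference of -0.50 (SE 0.16, adjusted p 0.172) in DPN. Of 3 electron donors of P450s measured, 0 were called, and Cyb5b and Cyb5r3 each had a first-day difference of -0.40 in DPN. Of 8 other P450s, 0 were called. Cyp2b10 had a first-day difference of 2.67 (SE 0.96, adjusted p 0.250) in DPN, with ratios of 4.36 at 4 h and 0.99 at 20 h, and Cyp3a13 one of 0.45 in DMN.

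Of 8 peroxisomal and peroxide-removing genes, 1 was called, on the first day of DPN (0.997% of all probe sets). Pex11a, which takes part in peroxisome division, rose by 0.74 (SE 0.16, limma adjusted p 0.0234) on the first day of DPN, with ratios of 0.87 at 4 h and 0.61 at 20 h, and the call was lost after quantile normalization (adjusted p 0.064). Dao, D-amino acid oxidase, stood at -0.71 (SE 0.34, adjusted p 0.307) in EtOH. Of 3 acetate and acetyl-CoA enzymes, 0 were called. Acly, which makes acetyl-CoA from citrate, stood at -0.53 (SE 0.30) and Acat1, the mitochondrial acetoacetyl-CoA thiolase, at 0.46 (SE 0.15) in EtOH, values that turned to 0.068 for Acly without 20 h and -0.043 for Acat1 on the deposited values.

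Of 10 SREBP target genes of lipid synthesis, 1 was called, also on the first day of DPN (0.997%). Elovl6, a fatty acid elongase, fell by 0.86 (SE 0.16, limma adjusted p 0.00766) on the first day of DPN, with ratios of -0.77 at 4 h and -0.95 at 20 h. Against all 5 controls the Elovl6 difference was -0.60 (adjusted p 0.231). Fdps stood at -1.44 (SE 0.55, adjusted p 0.191) in EtOH, all of it from the 20 h array, since without 20 h the value was 0.083. The list's first-day median was -0.03 in EtOH, -0.08 in DMN and -0.44 in DPN, beside 0.05, 0.02 and 0.01 over all probe sets. By array, its medians at 20 h were -0.36 in EtOH, -0.22 in DMN and -0.74 in DPN, beside Acss2 ratios of -1.13, -0.89 and -1.03. In EtOH the list median was -0.38 at 14 days, with all 10 genes below the control, and 0.89 at 28 days, with 9 of 10 above it, beside Acss2 ratios of -0.16 and 0.56.

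Markers of other liver cells were read the same way. No marker of Kupffer, endothelial, stellate or bile duct cells or lymphocytes was called on the first day or later in EtOH, DMN or DPN. Of 3 pancreas acinar markers measured, 1 was called on the first day of DPN (0.997% of all probe sets). Ctrb1, a digestive protease gene, fell by 2.22 (SE 0.53, limma adjusted p 0.0461) on the first day of DPN (adjusted p 0.0578 after quantile normalization), and the summed signal of the 3 ran from 863 to 1615 on DPN arrays and 1051 to 1978 on controls. The part of pancreas RNA in the DPN values was not tested.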

How the data were processed

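The table that the authors deposited gives 1 linear intensity for each of 22690 probe sets on 52 arrays, and no detection calls. The summarization and scaling behind these signals, not given in the sources used here, may shift any level. Every array column was analysed. After 64 control probe sets had been dropped, arrays were brought to a common median, a floor was set at the 30th percentile over the whole table (32.5) and base-2 logarithms were taken. The 18349 probe sets that exceeded this floor on 4 or more arrays were fitted in limma 3.58.1 (R 4.3.3), with control set and time as a block and a term for each chemical and period (16 residual degrees of freedom), or at each time for the genotoxic class (6). Controls were fitted on set and time (12). Calls used a Benjamini-Hochberg adjusted p under 0.05. The platform annotation gave a single symbol to 20380 probe sets, more than 1 to 691 and no symbol to 1555. The number of arrays limits the precision, and p-values rest on a residual spread that holds both the spread between pools and differences in response between the 2 times of a term. The fits were tested on simulated data. Figures used matplotlib 3.10.9.

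The 9 genes and all lists were chosen with earlier results of these data known. The genes named are the 9, in each pathway list the 2 with the largest first-day change in EtOH, DMN or DPN, and the 3 with the closest ratios to Cyp2e1, Adh1, Cat and Acss2. Outside this rule, called genes of the lists, Cyp2b10 in the controls and the closest pairs were named after their values were seen. Alternatives covered scaling, floor, filter, variance trend, controls and left-out arrays. The fits of the genotoxic class, the ratios under other scalings and the likeness without 3 arrays were added after seeing the data. The study names another Affymetrix array than the 1 whose probe-set names the table holds.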

Additional observations from a re-analysis of the deposited data

Results flagged for a closer look

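Of 36 groups of 4 saline controls (9 genes at 4 times), 2 held 1 array far from the other 3, where chance gives about 1 in 20. Adh5 at 28 days stood at 10.97 in the saline control of EtOH and PB, below the other 3 (11.43 to 11.46). Cat at 20 h stood at 11.95 in the saline control of the same set, below the other 3 (12.29 to 12.35). That Cat array is the 1 labelled saline with a high Cyp2b10 level.

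Of 54 comparisons over the 9 genes, 36 set the alkylating agents (ENU, DMN and DPN) against AAT, DMBA and DBP at the same time and 18 set 4 h against 20 h within 1 of these classes. In 1 of each kind every ratio of one side was below 0 and every ratio of the other above 0, and neither difference was tested. Cyp2e1 at 14 days lay below the control in ENU, DMN and DPN (-0.20, -0.06 and -0.15) and above it in AAT, DMBA and DBP (0.65, 0.08 and 0.12), a difference of means of -0.42, and 2.94% of all probe sets were opposed in this pair. The last 3 share 1 olive oil control. Adh4 lay below the control at 4 h (-0.37, -0.21 and -0.28 in ENU, DMN and DPN) and above it at 20 h (0.70, 0.16 and 1.04), a difference of means of -0.92, and 3.25% of all probe sets were opposed in that pair.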

How the results depend on the processing

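Precision was limited by 1 array per treatment and time, by pooling and by arrays that stood apart, so that missed calls do not show unaltered genes. No paired analysis was possible because the labels give no replicate numbers, beyond the block of control set and time that the chemical fits already held. The 9 genes gained 1 call against all 5 controls (Acss2 in DPN, -0.89), a setting in which the DPN count over all probe sets also rose, as given below. Without 4 h, 1 EtOH array stands alone and is assumed to vary like the others. Any calls among the 9 genes in that fit are therefore not counted here, and only effect sizes of single genes are given, such as -1.13 for Acss2.

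Counts of called probe sets moved more. Against all 5 controls of a time they were 742 (EtOH first day), 74 (DMN), 540 (DPN), 70 for ENU first day, 230 (AAT), 3 (DMBA) and 17 (DBP), 1 and 4 later in EtOH and DMN, 16, 13 and 72 for the first day minus later in EtOH, DMN and DPN, and 1 in the genotoxic class at 14 days. On deposited values first-day counts were 0 (EtOH), 1 (DMN), 19 (DPN), 6 (ENU), 3 (AAT), 0 (DBP) and 1 (PB), later counts 1 (EtOH), 27 (DMN) and 0 (DPN), first day minus later 3 (DMN) and 0 (DPN), and controls over time 9. With quantile normalization they were 23 (AAT first day), 1 (DMN later), 10 (DPN first day minus later) and 766 (controls over time). Without the floor they were 1 (EtOH), 2 (DMN), 5 (ENU) and 0 (DBP) on the first day, 3 (EtOH later), 0 (DMN first day minus later) and 1 (genotoxic at 14 days). Without the filter they were 1 (DMBA), 8 (DBP) and 1 (PB) on the first day, 2 (EtOH later), 2 (DMN later), and 1, 2 and 16 for the first day minus later in EtOH, DMN and DPN. Without the variance trend they were 0 (EtOH and DBP first day), 3 (EtOH later) and 11 (DPN first day minus later). Without the EtOH and PB set of 20 h the first day gave 0 (EtOH), 2 (DMN), 16 (AAT), 0 (DBP) and 1 (PB).

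Leaving out 1 time, first-day counts ran from 0 to 2541 (EtOH, the highest without 4 h), 2 to 13 (DMN), 32 to 152 (DPN), 1 to 79 (ENU), 2 to 122 (AAT), 0 to 4 (DMBA), 0 to 1 (DBP) and 0 to 2 (PB), later counts from 3 to 14 (EtOH), 1 to 55 (DMN) and 3 to 164 (DPN, without 14 days and without 28 days), and first day minus later from 0 to 1424 (EtOH), 1 to 14 (DMN) and 4 to 51 (DPN). Leaving out 1 chemical, the genotoxic class ran from 0 to 9 at 14 days (9 without DMN) and 0 to 1 at 28 days. Leaving out 1 control set, controls over time ran from 67 (without the DPN set) to 4138 (without the EtOH and PB set), and 0 to 4 of the 9 genes were called.

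Signs turned for Cyp2e1 in EtOH (-0.083 with quantile normalization, -0.34 on deposited values and -0.018 without its 20 h set; from -0.018 to 0.35 when 4 h or 20 h was left out), in DMN (0.054 on deposited values), in DPN (0.043 against all 5 controls) and in the genotoxic class (-0.066 with quantile normalization and -0.030 against all 5 controls at 4 h, 0.11 on deposited values at 20 h). They turned for Adh5 in EtOH (-0.17) and at 20 h alone (-0.0066) and for Aldh1a1 in PB at 28 days (-1.43), all on deposited values, and without 20 h in DPN for Acss2 (0.017, and -1.03 without 4 h) and Aldh3a2 (-0.11, and 1.21 without 4 h). Among the pathway genes, signs turned in EtOH for Acat1 (-0.043 on deposited values) and, without 20 h or its set, for Acly (0.068, and -1.13 without 4 h) and Fdps (0.083, and -2.96 without 4 h). The calls of Aldh1b1, Pex11a, Elovl6 and Ctrb1 in DPN kept their sign under all settings run, but each was lost with deposited values and whenever 14 days or 28 days, with their residual degrees of freedom, were left out.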
